A study of Sorghum bicolor with 5 samples.

Results

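In young leaves of sorghum, 138 of 35567 annotated genes had clearly more reads in both plants of a fast-growing epi-line than in any of 3 plants of a slower-growing epi-line. A gene entered this set when its counts per 1000000 reads in genes (CPM) were at least 1 in both plants of the line epi-F3 high, and when the lower of these values was at least 1.5 times the highest value among the plants of the line epi-F3 low. Genes SORBI_3003G168100 to SORBI_3003G174301, a block on chromosome 3 in which 5 genes met the same thresholds, were left out. Outside that block 16416 genes had at least 1 CPM in both epi-F3 high plants, so that 0.841% of them met the rule. A looser order, both epi-F3 high plants above every epi-F3 low plant by any margin, held for 15.7% of the same genes. The plants that chose the genes are the same plants whose values are given here, and the difference between the lines is therefore a description and not a test.

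Both lines share the grain sorghum inbred Tx430 as background and go back to crosses of unmodified Tx430 with transgene-free progeny of plants in which the organellar gene *MSH1* had been silenced by RNAi. The plants compared are 2 of epi-F3 high (line 68, plants 1 and 3), called enhanced in the labels, and 3 of epi-F3 low (line 15, plants 1, 2 and 3), called non-enhanced. All were grown in a greenhouse with 14 h days at 28 °C and nights at 22 °C, young leaves were taken from 4-week-old plants, and each plant gave 1 library. The study describes a further epi-F3 high plant, which was not analysed here. Each growth class is a single line and no wild-type Tx430 library was analysed here, so growth class and line cannot be told apart. The libraries held 48372266 to 59493403 counts in genes in epi-F3 high and 58755600 to 68979436 in epi-F3 low.

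*MSH1* encodes a DNA-binding protein of plastids and mitochondria, and its loss gives plants altered growth and stress responses, part of which can be inherited after the gene itself is restored. Plants also carry large families of immune receptors. NB-ARC proteins detect pathogen effectors inside the cell, and receptor-like kinases detect signals at its surface. These families vary in gene content between plant lines, and many of their copies are close to identical. Gene names below come from the Arabidopsis homologs that the study paired with its differentially expressed sorghum genes. Such a pairing was made for 81 of the 138 genes, of which 73 were paired with a nuclear gene and 8 with an organelle gene of Arabidopsis, and the other 57 are given by locus only. The homolog list was chosen by the study in this same experiment and is not independent evidence of direction. Roles are those known in Arabidopsis unless another species is named.

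Most of the 138 genes were expressed at low levels and exceeded the threshold by a small margin. The lower of the 2 epi-F3 high values had a median of 3.15 CPM and ranged between 1.01 and 128 CPM, whereas its median was 21.5 CPM over all 16416 expressed genes. It was under 5 CPM in 89 genes, 64.5% of the set, against 20.3% of all expressed genes. The ratio of the lower epi-F3 high value to the highest epi-F3 low value, with 0.1 CPM added to each, had a median of 1.69 and was under 2 in 105 genes. It was at least 3 in 18 genes, at least 5 in 12 and at least 10 in 10. Together the 138 genes took 0.130% of the gene counts in each epi-F3 high plant, against 0.0453%, 0.0402% and 0.0391% in epi-F3 low plants 1, 2 and 3. In whole leaf tissue, a difference in RNA per cell and a difference in the number of cells that express a gene cannot be told apart.

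**Figure D1:**
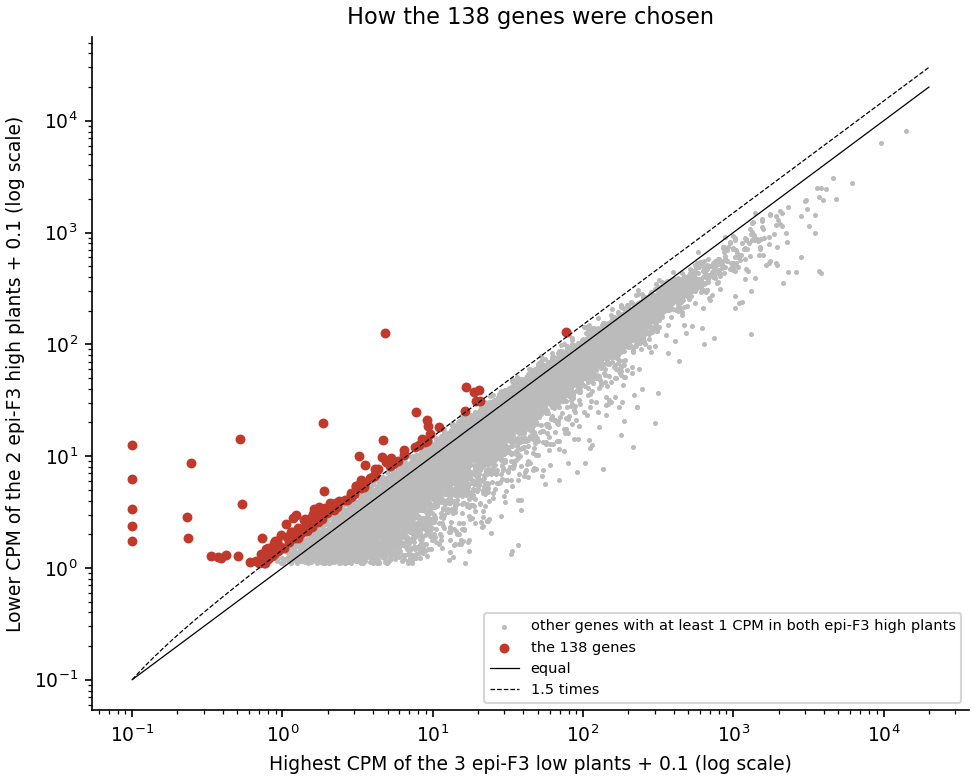
Each point is a gene with at least 1 CPM in both epi-F3 high plants outside the chromosome 3 block, with the lower of the 2 epi-F3 high values on the vertical axis and the highest of the 3 epi-F3 low values on the horizontal axis, both as CPM + 0.1 on log scales. The dashed curve marks 1.5 times before the 0.1 was added, and the 138 genes (red) lie on or above it, most of them close to it, and the 5 genes at the far left had no read in any epi-F3 low plant.

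The margin itself separated genes by very little. With TMM or RLE factors in place of the plain sum of gene counts, 90 of the 138 genes met the rule under all 3 scalings. The other 48 fell short under at least 1 of them. Among these, SORBI_3004G303433, SORBI_3009G246600 and SORBI_3002G404600 kept a ratio above 1.5 and fell short of 1 CPM, and the rest fell short of the ratio. The 48 include 17 of the 61 genes grouped by role below, which are pointed out in their groups, and all 3 genes named next as just inside the threshold. Just inside it, SORBI_3004G180066 and SORBI_3003G214850 both had a ratio of 1.503 without the added 0.1, and SORBI_3002G304400 had 1.505. Just outside it, *CDA1* (SORBI_3008G098400), a cytidine deaminase, had 19.1 and 13.2 CPM in epi-F3 high plants 1 and 3, against 8.83, 7.22 and 6.45 CPM in epi-F3 low plants 1, 2 and 3, and missed the rule with a ratio of 1.498. The next genes outside, SORBI_3010G039900 and SORBI_3010G157800, had ratios of 1.494 and 1.493.

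The largest differences belonged to genes that were read in epi-F3 high and close to unread in epi-F3 low. In SORBI_3003G311200, 607 and 904 reads, or 12.5 and 15.2 CPM, were counted in epi-F3 high plants 1 and 3, against 0 reads in epi-F3 low plants 1, 2 and 3. Its level in epi-F3 high was at least 889-fold higher, taking 3 counts over the epi-F3 low group as the floor. SORBI_3004G138500 had 296 and 531 reads in epi-F3 high plants 1 and 3, against 0 in all epi-F3 low plants, and was at least 482-fold higher. The same pattern, reads in both epi-F3 high plants and none in any epi-F3 low plant, was seen in 3 further genes at lower levels. SORBI_3003G177200 had 158 and 211 reads in epi-F3 high plants 1 and 3 and was at least 218-fold higher, SORBI_3002G133700 had 222 and 136 reads and was at least 220-fold higher, and SORBI_3005G110421 had 80 and 110 reads and was at least 112-fold higher. These 5 genes, 0.0305% of all expressed genes, were the only expressed genes outside the block with no read in epi-F3 low, and none of them was paired with an Arabidopsis homolog.

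A further group had a few reads in epi-F3 low. SORBI_3010G148750 had 8.66 and 10.8 CPM in epi-F3 high plants 1 and 3, against 0.145, 0 and 0.062 CPM in epi-F3 low plants 1, 2 and 3, and its mean was 141-fold higher in epi-F3 high. SORBI_3003G025400 had 4.05 and 2.74 CPM in epi-F3 high, against 0.130, 0 and 0.0775 CPM in epi-F3 low, a 49.0-fold difference of means. SORBI_3009G214800 was among the 2 highest-expressed genes of the set, with 127 and 138 CPM in epi-F3 high plants 1 and 3. Its epi-F3 low plants were unlike each other, with 0 reads in plant 1 but 224 and 306 reads, or 3.81 and 4.74 CPM, in plants 2 and 3. In all, 10 genes had no read in at least 1 epi-F3 low plant and 15 stayed under 0.5 CPM in every epi-F3 low plant. Among the 12 genes with a ratio of at least 5, 3 had an Arabidopsis homolog, namely *RPPL1*, *SUR1* and *CRK25*.

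**Figure D2:**
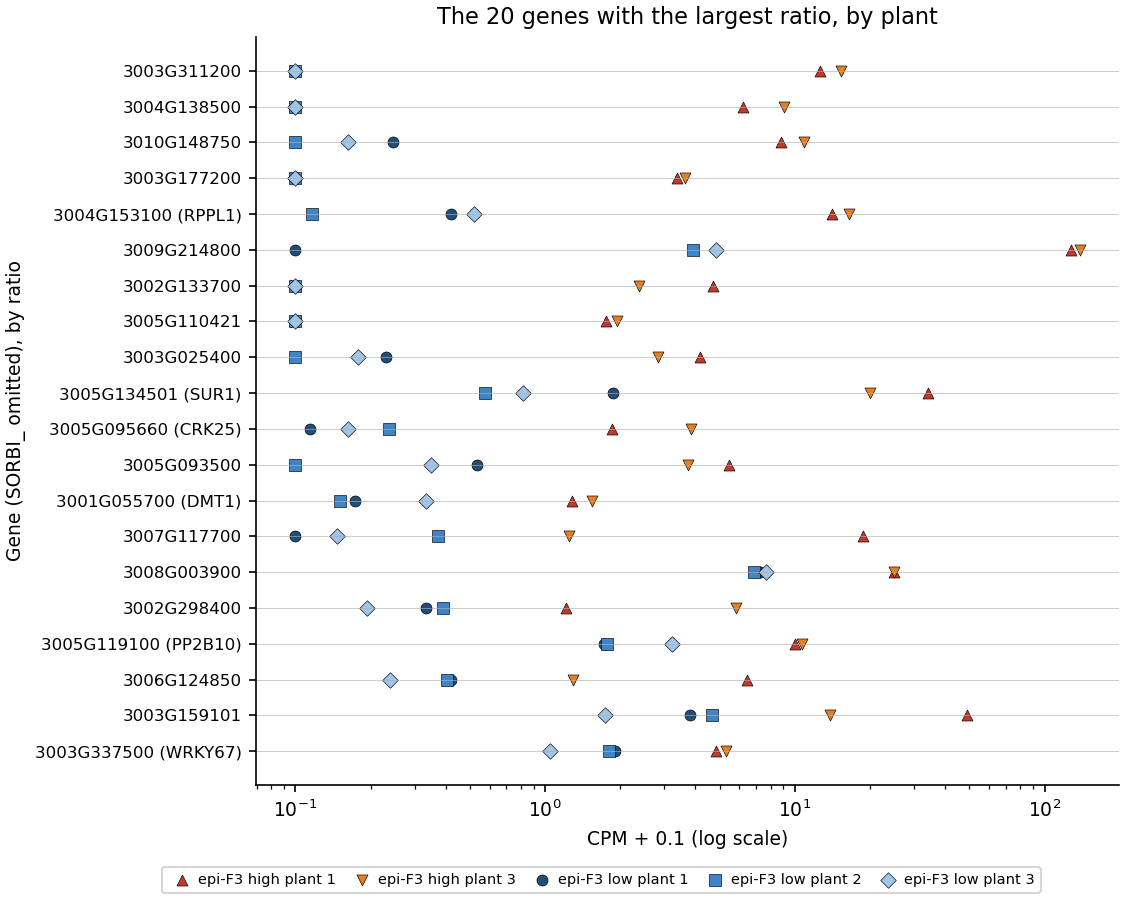
CPM + 0.1 on a log scale in each plant for the 20 genes with the largest ratio, ordered from the top; triangles are the 2 epi-F3 high plants and blue symbols the 3 epi-F3 low plants, and points at 0.1 are plants with no read. SORBI_3009G214800 is the gene with 127 and 138 CPM in epi-F3 high, and SORBI_3007G117700 is the one in which the 2 epi-F3 high plants lie farthest apart.

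Immune receptor genes were 8 of the genes with a homolog, 3 of the NB-ARC family and 5 receptor-like kinases. The strongest was *RPPL1* (SORBI_3004G153100), related to the RPP13-like NB-ARC proteins of Arabidopsis, with 14.0 and 16.4 CPM in epi-F3 high plants 1 and 3, against 0.319, 0.017 and 0.418 CPM in epi-F3 low plants 1, 2 and 3. Its mean was 60.4-fold higher in epi-F3 high, and both epi-F3 high plants stood far above all epi-F3 low plants. The other genes paired with *RPPL1* were closer to the threshold: SORBI_3005G053200 had 3.43 and 14.2 CPM in epi-F3 high, against 1.51, 1.75 and 2.22 CPM in epi-F3 low, and SORBI_3009G041400 had 8.95 and 11.7 CPM, against 5.78, 4.53 and 4.71 CPM. In SORBI_3005G053200 it was plant 3 of epi-F3 high that stood apart, since plant 1 was within 1.55 times the highest epi-F3 low plant. The 24 NB-ARC genes in the homolog list outside the block did not all differ in 1 direction. The epi-F3 high mean was the higher one in 11 and the lower one in 13. Over all 1069 listed genes these counts were 703 and 366. Of the 8 receptor genes, SORBI_3005G053200 and the kinase gene SORBI_3006G030600 fell short of the rule with TMM and RLE factors. Only uniquely mapped reads were counted, so a read shared between near-identical receptor copies was lost, and the level of a single copy in such a family is uncertain.

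*CRK25* (SORBI_3005G095660), a cysteine-rich receptor-like kinase, had 1.76 and 3.75 CPM in epi-F3 high plants 1 and 3, against 0.0145, 0.136 and 0.062 CPM in epi-F3 low plants 1, 2 and 3, and its mean was 38.8-fold higher. The 3 genes paired with the same leucine-rich repeat kinase gene of Arabidopsis differed less. SORBI_3002G074700 had a 3.29-fold, SORBI_3006G030600 a 2.45-fold and SORBI_3005G122400 a 2.43-fold higher mean in epi-F3 high. SORBI_3009G087600, a G-type lectin receptor kinase, was the most highly expressed of the kinases, with 19.8 and 18.7 CPM in epi-F3 high, against 9.19, 8.42 and 9.25 CPM in epi-F3 low. Here the plants within each line lay close together. Of the 27 receptor kinases in the homolog list outside the block, 20 were higher and 7 lower by the mean of epi-F3 high, beside 703 and 366 of all 1069 listed genes.

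A gene of salicylic acid turnover and genes of redox balance were grouped by hand, 4 in all. Plant 3 of epi-F3 high exceeded plant 1 in 4 of 4, beside 73 of all 138 genes. That order depended on scaling over the set, as given below, and nothing is read from so few genes. *DMR6* (SORBI_3001G526900), whose product hydroxylates the defence hormone salicylic acid and lowers its level, had 14.0 and 31.3 CPM in epi-F3 high plants 1 and 3, against 8.32, 3.57 and 6.31 CPM in epi-F3 low plants 1, 2 and 3. The glutaredoxin gene *GRXC9* (SORBI_3009G232266) had 3.41 and 5.68 CPM in epi-F3 high, against 1.65, 1.65 and 1.32 CPM in epi-F3 low. *EMB2360* (SORBI_3001G248500), which encodes a glutathione reductase, had 1.92 and 2.59 CPM, against 1.22, 0.596 and 0.883 CPM in epi-F3 low. Means in this group, which also holds the chloroplast thioredoxin gene *ATHM4* (SORBI_3006G157600), were 2.51- to 4.96-fold higher in epi-F3 high.

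Regulators of transcription and hormone response numbered 9 and differed by 1.72- to 5.37-fold between the line means. *ATHB-8* (SORBI_3007G036550), a class III homeodomain-leucine zipper gene of vascular cells, had 25.8 and 9.68 CPM in epi-F3 high plants 1 and 3, against 4.52, 2.94 and 2.46 CPM in epi-F3 low plants 1, 2 and 3. *WRKY67* (SORBI_3003G337500), of the WRKY family that includes many defence regulators, had 4.73 and 5.21 CPM in epi-F3 high, against 1.80, 1.70 and 0.945 CPM in epi-F3 low. *TSO1* (SORBI_3008G160600), a CRC-domain gene with a role in cell division and flower form, was the highest-expressed regulator, with 37.4 and 42.0 CPM, against 18.8, 16.5 and 14.4 CPM in epi-F3 low. *ATHB-8* was thus uneven between the epi-F3 high plants, whereas *WRKY67* and *TSO1* had similar values in both. *IAA17* (SORBI_3009G065000), a repressor of auxin response, had a 2.36-fold and *SAUR66* (SORBI_3002G285300), of an auxin-induced family, a 3.64-fold higher mean. *TTG1* (SORBI_3004G280800), a WD40 protein of the anthocyanin and trichome pathways, had a 1.92-fold higher mean. The ethylene response factor gene *ERF060* (SORBI_3007G124100) showed the smallest difference, with 18.23 and 18.04 CPM in epi-F3 high, against 10.29, 10.98 and 10.35 CPM in epi-F3 low. *ERF060*, *TTG1* and *LBD36* (SORBI_3001G167600), a LOB-domain gene, fell short of the rule with TMM and RLE factors. In the homolog list the epi-F3 high mean was above the epi-F3 low mean in 43 of 58 transcription factors, 12 of 16 auxin genes and 12 of 13 genes of other hormones. Over the whole list it was above in 703 of 1069 genes, so nothing particular to these families is read from the counts.

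Enzymes of aromatic, terpene and sulfur metabolism, 8 genes, held the largest fold difference among the metabolic genes with a described homolog. *SUR1* (SORBI_3005G134501), a C-S lyase that in Arabidopsis acts in glucosinolate synthesis, had 34.2 and 19.8 CPM in epi-F3 high plants 1 and 3, against 1.77, 0.477 and 0.713 CPM in epi-F3 low plants 1, 2 and 3, a 27.4-fold difference of means. Both genes paired with the sesquiterpene synthase *TPS21* were low: SORBI_3007G064800 had 2.09 and 1.75 CPM in epi-F3 high, against 0.319, 0.630 and 0.124 CPM in epi-F3 low, and SORBI_3009G009000 had 7.28 and 3.87 CPM, against 2.26, 0.374 and 0.031 CPM. The pair share a homolog, so reads common to both copies would be missing from both values. In the shikimate pathway, which supplies the aromatic amino acids, the gene of its entry enzyme DAHP synthase (SORBI_3001G351000) had 38.9 and 42.6 CPM in epi-F3 high, against 20.2, 10.8 and 10.6 CPM in epi-F3 low. The tryptophan synthase alpha gene *TRPA1* (SORBI_3001G056500) had 8.79 and 10.8 CPM, against 3.96, 4.82 and 1.05 CPM in epi-F3 low. Of the 12 shikimate and tryptophan genes in the homolog list, the epi-F3 high mean was above that of epi-F3 low in 7 and below it in 5, so the pair named here is not the whole pathway. *CYP73A5* (SORBI_3003G337400), cinnamate 4-hydroxylase of the phenylpropanoid pathway, had a 2.68-fold higher mean at 1.65 and 1.23 CPM in epi-F3 high. *BGLU16* (SORBI_3008G080400), a beta-glucosidase, had 48.0 and 30.7 CPM, against 14.1, 19.2 and 6.83 CPM in epi-F3 low, and *CYP704A2* (SORBI_3010G019500), a cytochrome P450, had 1.57 and 5.43 CPM, against 0.580, 0.477 and 0.775 CPM. *BGLU16* and *CYP73A5* fell short of the rule with TMM and RLE factors. Of the listed terpene, phenylpropanoid and flavonoid genes 13 of 20, and of the listed cytochromes P450 13 of 23, had the greater mean in epi-F3 high. Over the whole list 703 of 1069 genes did.

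Lipid and cell wall genes differed by less, with a median of 2.27-fold over 8 genes. *GPAT6* (SORBI_3001G099300), an acyltransferase of cutin synthesis, had 2.87 and 3.13 CPM in epi-F3 high plants 1 and 3, against 1.13, 0.272 and 0.682 CPM in epi-F3 low plants 1, 2 and 3. *DGAT2* (SORBI_3008G049000), which makes triacylglycerol, had a 2.63-fold higher mean, *FAR2* (SORBI_3004G144150), a fatty acyl reductase, a 1.92-fold and *PXG4* (SORBI_3010G104900), a peroxygenase, a 2.04-fold higher mean. In the cell wall, *HPAT3* (SORBI_3003G128100), which adds arabinose to extensins, had a 1.99-fold and an exostosin family gene (SORBI_3001G387300) a 1.92-fold higher mean. The exception in size was a dehydrodolichyl diphosphate synthase gene (SORBI_3002G298400), with 1.12 and 5.71 CPM in epi-F3 high, against 0.232, 0.289 and 0.093 CPM in epi-F3 low, in which plant 3 had 5.12 times the value of plant 1. *PXG4* fell short of the rule with RLE factors. Among 19 listed cell wall genes, 11 had the greater mean in epi-F3 high, beside 703 of all 1069 listed genes.

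Among genes that act on chromosomes, *DMT1* (SORBI_3001G055700), the maintenance methyltransferase of CG sites also called *MET1*, had 1.18 and 1.45 CPM in epi-F3 high plants 1 and 3, against 0.0725, 0.051 and 0.232 CPM in epi-F3 low plants 1, 2 and 3. Its mean was 11.1-fold higher at this low level, where its counts were 57 and 86 reads in epi-F3 high and 5, 3 and 15 reads in epi-F3 low. *CTF7* (SORBI_3006G136000), which establishes cohesion between sister chromatids, had 1.20 and 4.10 CPM in epi-F3 high, against 0.739, 0.272 and 0.589 CPM in epi-F3 low. A gene described as a DNA mismatch repair protein (SORBI_3005G005300) had 1.45 and 2.54 CPM, against 0.565, 0.715 and 0.868 CPM in epi-F3 low. In all 3 genes plant 3 of epi-F3 high exceeded plant 1, as it did in 73 of the 138 genes. The summed level of 14 dividing-cell markers differed in the same direction between these plants, at 34.4 and 563 CPM in epi-F3 high plants 1 and 3, against 63.9, 34.9 and 72.0 CPM in epi-F3 low plants 1, 2 and 3. None of those markers was in the set, and 1 of the 14 was at 0 in at least 1 library. Their part in the values of *DMT1*, *CTF7* and the mismatch repair gene was not tested. Of the 51 listed genes of DNA replication, repair and histones, 48 had the higher mean in epi-F3 high, beside 703 of all 1069. Such a mean can be raised by plant 3 alone, as in the marker sum above, and the plants were not counted separately. In the set were 3 of the 51, or 5.88%, beside 7.58% of all 1069 listed genes.

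Protein modification by ubiquitin and SUMO was represented by 7 genes with fold differences of 1.66 to 4.77. The F-box gene *PP2B10* (SORBI_3005G119100), whose Arabidopsis family carries a phloem lectin domain, had 9.88 and 10.6 CPM in epi-F3 high plants 1 and 3, against 1.62, 1.67 and 3.13 CPM in epi-F3 low plants 1, 2 and 3. *BB* (SORBI_3006G184200), a ubiquitin ligase that limits organ size, had 2.60 and 2.86 CPM in epi-F3 high, against 1.35, 1.04 and 0.868 CPM in epi-F3 low. *SCE1* (SORBI_3006G189200), the SUMO-conjugating enzyme, had 2.58 and 2.86 CPM, against 1.13, 1.29 and 1.19 CPM in epi-F3 low. In these genes the epi-F3 high plants differed little. The ubiquitin-conjugating enzyme gene *UBC37* (SORBI_3003G212600), the U-box ligase gene *PUB27* (SORBI_3004G169900), a DWNN-domain gene (SORBI_3008G180400) and an FBD-associated F-box gene (SORBI_3007G016800) made up the group. *UBC37* and the FBD-associated gene fell short of the rule with TMM and RLE factors. The homolog list held 44 F-box and ubiquitin genes outside the block, 25 higher and 19 lower in epi-F3 high by their means. Of all 1069 listed genes, 703 were higher and 366 lower.

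Transporters and carbon metabolism gave 6 genes with fold differences of 1.74 to 3.02. *ABCC4* (SORBI_3006G021900), of a family of vacuolar and plasma membrane ABC transporters, had 31.1 and 54.6 CPM in epi-F3 high plants 1 and 3, against 9.87, 12.1 and 20.5 CPM in epi-F3 low plants 1, 2 and 3. Both nitrate and peptide transporter family genes were level in the epi-F3 high plants, *NPF3.1* (SORBI_3010G109200) with 5.995 and 6.22 CPM, against 2.885, 3.25 and 3.05 CPM in epi-F3 low, and *NPF7.3* (SORBI_3004G260500) with 2.63 and 2.49 CPM, against 1.55, 0.919 and 0.775 CPM. *RP1* (SORBI_3002G324700) regulates pyruvate, phosphate dikinase, an enzyme of the carbon-concentrating cycle in sorghum leaves. It had 25.9 and 25.5 CPM in epi-F3 high, against 16.3, 13.7 and 14.2 CPM in epi-F3 low. Of the 6 photosynthesis and chlorophyll-binding genes in the homolog list outside the block, *RP1* was the 1 with the higher mean in epi-F3 high, and 5 were lower. *TPPJ* (SORBI_3001G353300), a trehalose-phosphate phosphatase, had a 2.81-fold higher mean and a WAT1-related transporter (SORBI_3010G006700) a 1.99-fold higher mean. With TMM and RLE factors 3 of the 6 genes, *ABCC4*, *NPF7.3* and *RP1*, fell short of the rule. The 53 transporters of the homolog list were split into 30 higher and 23 lower in epi-F3 high by their means. All 1069 listed genes were split into 703 and 366.

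**Figure D3:**
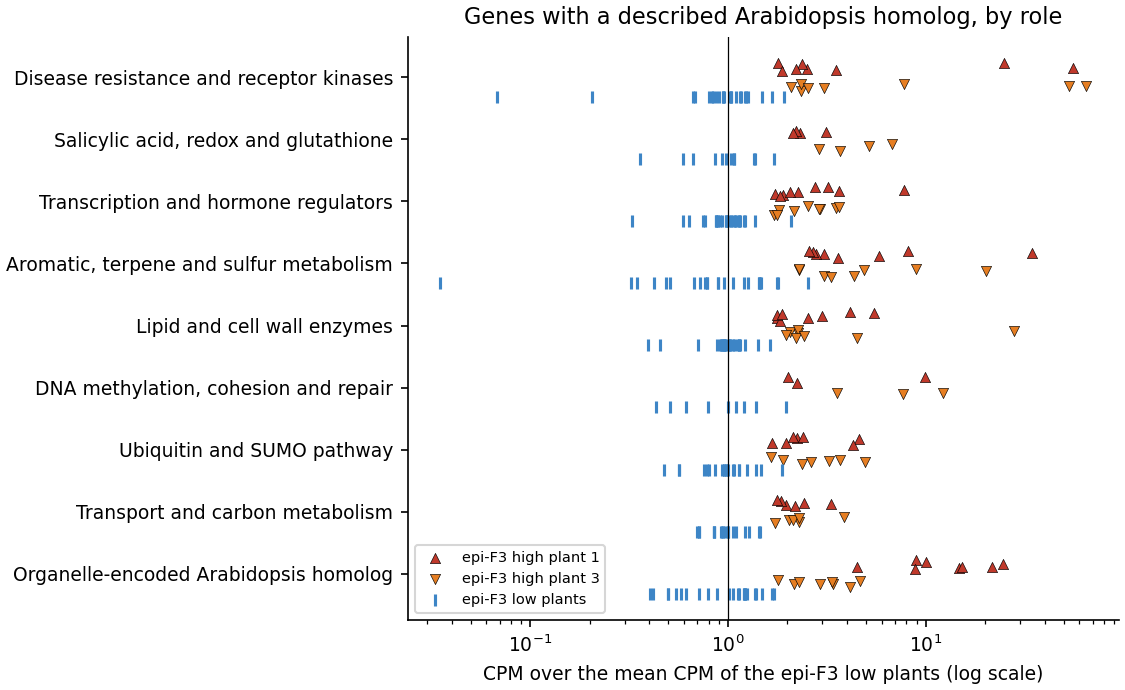
CPM of each plant divided by the mean CPM of the 3 epi-F3 low plants, on a log scale, for 61 genes with a described or organelle-encoded homolog, by role; triangles are the epi-F3 high plants and blue ticks the epi-F3 low plants. In the organelle-homolog group every plant 1 value of epi-F3 high lies right of most plant 3 values, while in the groups of chromosome and of salicylic acid and redox genes plant 3 values are the higher ones.

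The 8 genes whose Arabidopsis partner lies in an organelle genome, 7 with a plastid gene and 1 with a mitochondrial gene, were all higher in plant 1 than in plant 3 of epi-F3 high. SORBI_3003G159101, the highest of them, had 48.9 and 13.7 CPM in epi-F3 high plants 1 and 3, against 3.70, 4.58 and 1.64 CPM in epi-F3 low plants 1, 2 and 3. SORBI_3006G124700 had 21.7 and 2.92 CPM in epi-F3 high, against 1.01, 1.498 and 0.496 CPM in epi-F3 low, and SORBI_3009G123100 had 21.6 and 5.26 CPM, against 2.93, 2.98 and 1.41 CPM. Across the 8 genes the ratio of plant 1 to plant 3 lay between 1.95 and 7.42 with a median of 4.31, while the median over the other 130 genes was 0.966. Their summed level was 125 and 32.2 CPM in epi-F3 high plants 1 and 3, against 12.3, 14.2 and 5.75 CPM in epi-F3 low plants 1, 2 and 3. All 44 organelle-homolog genes of the list, which include 20 inside the chromosome 3 block, stood in the same order at 1223 and 287 CPM in epi-F3 high, against 175, 208 and 80.9 CPM in epi-F3 low. Of the 24 outside the block, 24 in epi-F3 high plant 1 and 21 in epi-F3 high plant 3 exceeded the values of all 3 epi-F3 low plants. By the mean all 24 were higher in epi-F3 high, beside 703 of all 1069 listed genes. The list was chosen by the study on this same contrast. The share of all listed genes above every epi-F3 low plant was not computed, so nothing is read from these counts. With RLE factors 4 of the 8 genes fell short of the rule, SORBI_3009G123100 among them, and with TMM factors the same genes but for that one. Reads in no annotated gene took the largest share in the same library, 7.07% and 5.21% in epi-F3 high plants 1 and 3, against 5.37%, 4.69% and 3.77% in epi-F3 low. The part of that share in the levels of these 8 genes was not tested. Reads from the organelle genomes and from nuclear copies of organelle DNA can be alike, and only unique reads were kept, so the levels of these genes are uncertain.

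The spread between the epi-F3 high plants is given as a description, because the rule used the lower of their values and so favoured genes high in both. The higher value was at most 25% above the lower in 76 of the 138 genes, 55.1%, against 42.7% of all expressed genes, and over 2-fold apart in 23 genes, 16.7%, against 14.4%. The median fold between the plants was 1.21 in the set and 1.31 over all expressed genes. Plant 1 was the higher in 65 genes and plant 3 in 73, but this order depended on scaling, since plant 3 was the higher in 55 genes with TMM factors and in 52 with RLE factors. The widest gap was in SORBI_3007G117700, with 18.7 and 1.14 CPM in epi-F3 high plants 1 and 3, against 0, 0.272 and 0.0465 CPM in epi-F3 low plants 1, 2 and 3. SORBI_3002G254000 followed with 8.87 times the value of plant 3 in plant 1, and fell short of the rule with TMM and RLE factors. In the other direction SORBI_3004G112300 had 3.04 and 18.4 CPM in epi-F3 high plants 1 and 3, against 1.70, 0.834 and 1.38 CPM in epi-F3 low.

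**Figure D4:**
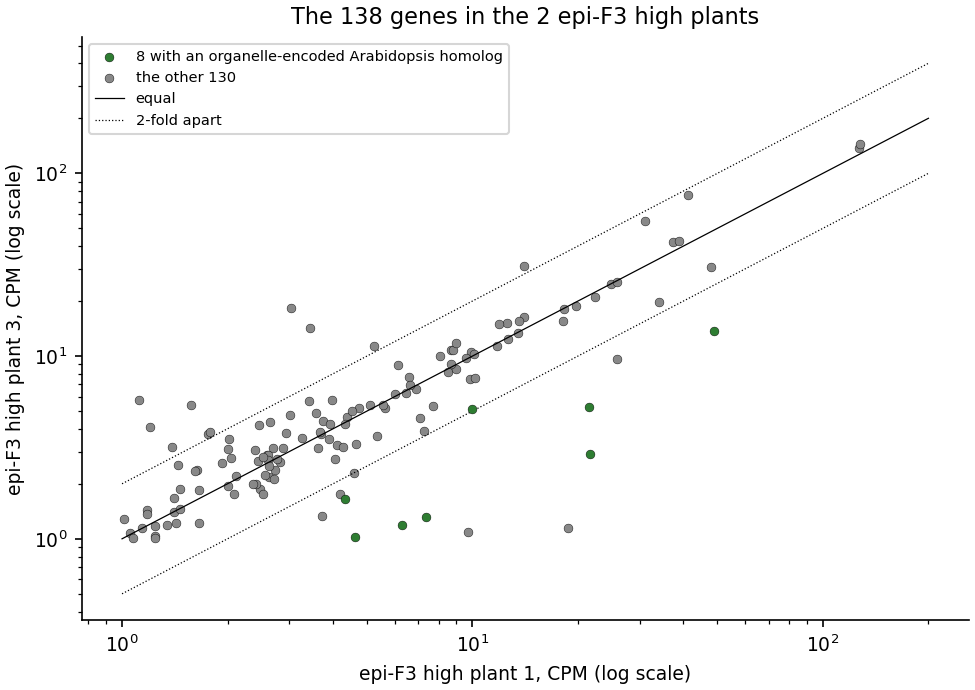
CPM of the 138 genes in epi-F3 high plant 1 (horizontal) and plant 3 (vertical), both on log scales, with lines for equal values and for 2-fold apart. The 8 genes with an organelle-encoded homolog (green) all lie below the line of equal values, with ratios of plant 1 to plant 3 between 1.95 and 7.42.

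The epi-F3 low plants also differed among themselves in these genes. Their highest value came from plant 1 in 65 genes, 47.1%, close to the 43.8% of all expressed genes, and from plants 2 and 3 in 34 genes each. The highest and lowest epi-F3 low plant differed by at most 25% of the lower in 24 genes, while in 52 genes they were over 2-fold apart or 1 of them had no read. The same counts over all expressed genes were not computed, so nothing particular to the set is read from them. SORBI_3008G003900 was an example of an even gene in both lines, with 24.8 and 24.9 CPM in epi-F3 high plants 1 and 3, against 7.13, 6.76 and 7.59 CPM in epi-F3 low plants 1, 2 and 3. Among the highly expressed genes, SORBI_3001G171900, of a phospholipase C-like phosphodiesterase family, had 128 and 144 CPM in epi-F3 high, against 77.2, 67.1 and 64.1 CPM in epi-F3 low. An acyl-CoA N-acyltransferase family gene (SORBI_3005G055150) had 41.3 and 76.2 CPM in epi-F3 high, against 16.6, 13.6 and 15.4 CPM in epi-F3 low. A metal-dependent phosphohydrolase gene (SORBI_3008G098500) had 22.4 and 21.1 CPM, against 9.02, 5.36 and 6.88 CPM in epi-F3 low. The splicing factor gene *U2AF65B* (SORBI_3005G216800) had a 3.32-fold higher mean and fell short of the rule with TMM and RLE factors.

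By the chromosome in the locus number, the genes were spread over all 10 sorghum chromosomes. Chromosome 5 held 13 of them, 1.62% of its 802 expressed genes, and the other chromosomes between 0.655% and 1.05%. The 13 included *CRK25*, *SUR1*, *PP2B10*, an *RPPL1* gene (SORBI_3005G053200) and SORBI_3005G110421, which had no read in epi-F3 low. The densest stretch of 50 expressed genes, chosen after its values were seen, lay between SORBI_3005G118600 and SORBI_3005G134501 and held 4 of the genes. Neighbouring loci were rare, with 2 pairs in all. *CYP73A5* and *WRKY67* (SORBI_3003G337400 and SORBI_3003G337500) were adjacent, and SORBI_3006G124700 and SORBI_3006G124850, both paired with plastid genes, had 1 gene between them.

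**Figure D5:**
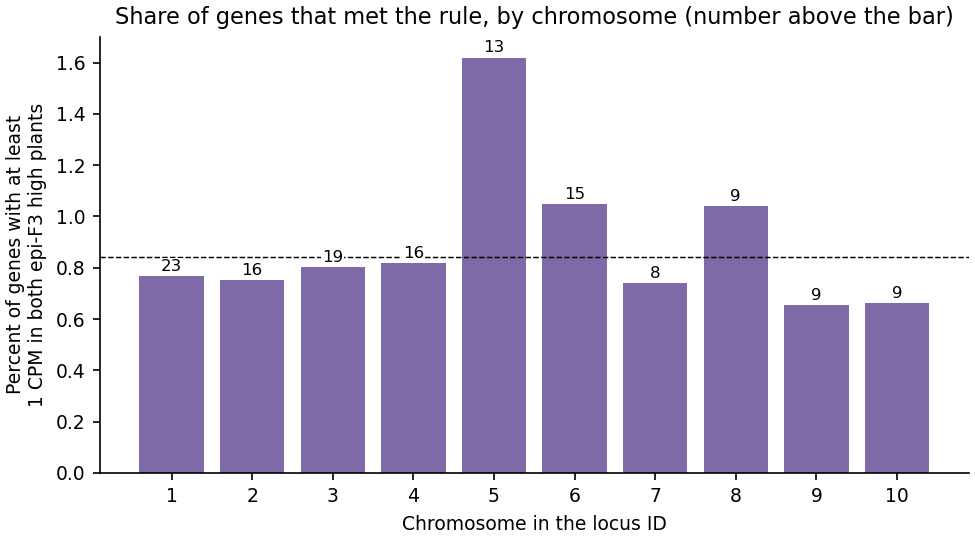
Bars give, for each chromosome in the locus number, the percent of genes with at least 1 CPM in both epi-F3 high plants that met the rule, the number above each bar is the count of genes, and the dashed line is the 0.841% over all expressed genes. Chromosome 5 has the highest bar at 1.62%.

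The fit over all 23098 genes with at least 10 counts in total is given for its background only, because the rule used the same contrast. The members' fitted log2 fold change of epi-F3 high over epi-F3 low had a median of 1.27 and ranged between 0.62 and 12.63, beside a median of 0.02 over all genes fitted. With edgeR's quasi-likelihood test (adjusted p up to 0.1, log2 fold change of 0.5 or more in size), 1 of the 138 genes was called higher, SORBI_3003G311200, and it was the only call among all genes (0.00433%). With edgeR's exact test 26 of the 138 were called, where the background share was 0.173%, and with DESeq2 31, where it was 0.186%. By either of these tests 32 of the genes were called, and by both of them 25. Nothing about the genes is read from these counts. The p-values measure only the spread between these plants, 1 library each.

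Marker genes in the same homolog list were summed in each library. The list holds only genes that the study called different between the lines, so these sums cannot check the leaf label. The summed level of the chlorophyll-binding genes *LHB1B1* and *LHCB5* was 981 and 1802 CPM in epi-F3 high plants 1 and 3, against 1695, 1719 and 3481 CPM in epi-F3 low plants 1, 2 and 3. Heat shock genes summed to 645 and 443 CPM in epi-F3 high, against 759, 884 and 774 CPM in epi-F3 low. Several listed families had no gene in the set, among them 9 peroxidases, 10 chaperones and 4 ribosomal protein genes. The greater mean was in epi-F3 high in 8 of the peroxidases, 3 of the chaperones and 0 of the ribosomal protein genes. Of all 1069 listed genes it was in 703. None of these chlorophyll-binding and heat shock marker genes is in the set, and their part in the values above was not tested.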

How the data were processed

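RNA from young leaves of 5 plants was sequenced as paired-end libraries. The authors trimmed reads with Trim Galore 0.4.1, used STAR 2.7.3a to align them to NCBIv3, and deposited raw counts of uniquely mapped reads per gene. Their notes also name edgeR 3.26.8 and DESeq. The strand setting of the count is not given in the sources used here, so overlapping and antisense genes cannot be told apart. The 5 summary lines per file were left out of library sizes. Of the uniquely mapped reads, 3.77% to 7.07% lay in no gene and 0.445% to 0.557% were ambiguous.

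CPM were computed from the sum of gene rows. Genes with at least 10 counts in total were fitted with edgeR 4.0.16 (TMM, quasi-likelihood test, Benjamini-Hochberg adjustment) in R 4.3.3. The exact test, DESeq2 1.42.0, limma-voom 3.58.1, other scalings, filters, thresholds, replicate blocks and leaving out each library were alternatives. The fits were also run on simulated counts with 4-fold and 16-fold differences placed in well-counted genes. Members with reads in epi-F3 low had a median fold of 2.56, so that run does not show how the fits treat them. Counting precision is limited by reads, and floors of 3 counts cover counting error only.

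The members and gene lists were chosen with earlier results of these data known. Named genes were the 10 with the largest ratio, the 10 highest-expressed, up to 3 per gene list, those the study's text names, neighbouring loci, those at the threshold, and the 3 with the largest gap between epi-F3 high plants in each direction. Further genes with a described homolog were named after their values were seen. Gene names were not taken from the RefSeq gene table, in which 0 loci matched. Lists were applied to the study's homolog table only, and the planned promoter motif search was not run. The order of the epi-F3 high plants under other scalings was added after seeing the data. The plant numbers shared by the lines were checked as pairs, with correlations of deviations from the line means of 0.01 for plant 1 and 0.36 for plant 3. With 2 epi-F3 high plants these are not independent, and nothing ties plants of equal number to one another.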

Additional observations from a re-analysis of the deposited data

How the results depend on the processing

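The number of genes that met the rule was 97 with TMM factors and 92 with RLE factors, of which 95 and 90 were among the 138, and the 48 genes lost under either had ratios of at most 1.84. It was 426 when the lower epi-F3 high value had to be only 25% above the highest epi-F3 low value. At a ratio of at least 2 it was 39. With 1 library left out it was between 189 and 1816. It was 1816 without epi-F3 high plant 1, 836 without epi-F3 high plant 3, 583 without epi-F3 low plant 1, 189 without plant 2 and 227 without plant 3. The rule takes the lowest epi-F3 high and the highest epi-F3 low value, so leaving out a library can only add genes. That all 138 stayed was therefore fixed in advance, and nothing about a single plant is read from these numbers. Genes called higher numbered 1 by edgeR's quasi-likelihood test, 43 by DESeq2, 40 by the exact test, 10 with no filter and 0 by limma-voom, with filterByExpr and at the stricter threshold (adjusted p of at most 0.05, log2 fold change of at least 1). The corresponding counts among the 138 genes were 1, 31, 26, 10 and 0. At an unadjusted p under 0.05, 97 of the 138 were higher by the quasi-likelihood test, beside 522 of all 23098 genes (2.26%). By limma-voom 108 of the 138 were, beside 443 of all genes. The 138 were chosen on this same contrast, so nothing is read from these counts. With a replicate block by plant number 46 genes and 20 of the 138 were called, and with a replicate block by biological replicate number 7 and 4. The block results rest on numbers that may not pair the plants. Leaving out 1 library gave 0 to 76 calls, and 0 to 10 among the 138: 76 and 10 without epi-F3 high plant 1, 26 and 10 without epi-F3 high plant 3, 1 and 1 without epi-F3 low plant 1, and 0 without epi-F3 low plant 2 or 3. By the exact test, an alternative chosen after seeing the data, 20, 15 and 16 of the 138 were called without epi-F3 low plants 1, 2 and 3. Over all genes 49, 18 and 20 were called higher in the same order. Calls without an epi-F3 high plant are left out for both tests, since a lone epi-F3 high plant is assumed to vary like the other line. The median log2 fold change of the 138 was 1.12 to 1.32 over all these settings, lowest without epi-F3 high plant 1. Of 1794 results of single genes over 13 settings, those without an epi-F3 high plant among them, 105 gained a call and 5 lost one. Only SORBI_3003G311200, the 1 gene called in the main fit, had a call to lose. All 5 losses were its own: with limma-voom, with filterByExpr, and without epi-F3 low plant 1, 2 or 3. The 1 call without epi-F3 low plant 1 was a different gene, SORBI_3009G214800, which had 0 reads in that plant. Its adjusted p by the quasi-likelihood test was 0.0321 without that plant, against 0.999 in the main fit. For SORBI_3003G311200 the adjusted p without that plant was 0.155. The direction of the single genes was fixed by their selection and says nothing about stability. The cause of these changes was not tested, and some settings also had fewer samples or genes.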
